A study of Mus musculus with 8 samples.

Results

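The p38 mitogen-activated protein kinases and the kinases that activate them were followed in sorted bone marrow cells of wild-type (WT) and Sca1-MALT1 transgenic mice. The set comprised the p38 genes Mapk14, Mapk11, Mapk12 and Mapk13 and the activator genes Map2k3, Map2k6 and Map2k4. The members were all probe sets whose platform gene symbol is one of these 7 genes, which gave 16 of the 45037 probe sets and 7 of the 18193 genes measured. Mapk12 was chosen because it differed between the genotypes on these same arrays, so its difference is given as a description and not as a test. The other 6 genes were listed as its relatives, by family and not by signal.

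The cells were Sca1+Lin-, that is, positive for the stem cell antigen Sca1 and negative for markers of mature lineages, and were sorted from bone marrow. There were 3 samples of WT mice and 5 of mice that carry the Sca1-MALT1 transgene. Its name joins the Sca1 promoter and MALT1, a scaffold and protease of antigen receptor signalling. All samples were treated alike: total RNA was linearly amplified, labelled with biotin and hybridised to 1-colour Affymetrix arrays, and no drug or stimulus is named. The labels give no age, strain, sex or batch, and do not say whether each sample came from its own animal, so p-values measure the spread between samples and that spread may be only technical. Nor do they name the MALT1 species or isoform of the transgene.

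The p38 kinases are the stress and cytokine branch of the MAP kinases. A MAP3K activates MKK3 (Map2k3), MKK6 (Map2k6) or MKK4 (Map2k4), which phosphorylate the threonine and tyrosine of the p38 activation loop, and p38 then phosphorylates downstream kinases such as MK2, transcription factors and RNA-binding proteins. p38 alpha (Mapk14) is the widely expressed form in blood cells, p38 beta (Mapk11) is its closest relative, p38 gamma (Mapk12) is best known from skeletal muscle and carries a tail that binds PDZ domain proteins, and p38 delta (Mapk13) is known from epithelia and myeloid cells. Signals that pass through BCL10 and MALT1 reach these kinases as well as NF-kB by way of the MAP3K TAK1 (Map3k7). Transcript levels, which were measured here, do not report the phosphorylation on which p38 activity depends.

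Signals are log2 values that the authors derived by robust multi-array averaging (RMA), and the median of an array lay between 6.40 and 6.48. RMA gives no detection call and no scale shared by different probe sets, so levels are compared between arrays and never between genes. A signal below the median of its array was therefore not taken as shown to exceed background, nor as absence of the transcript. The arrays correlated with one another at r from 0.956 to 0.983 over all genes. The stem and progenitor markers Kit and Cd34 averaged 10.11 and 10.63 in WT, above the array medians, and so did genes of mature cells such as S100a8 at 14.74 and Ms4a1 at 12.55.

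Mapk12 and Mapk11 are neighbouring protein-coding genes on chromosome 15, both on the minus strand, and Mapk14 and Mapk13 are neighbours on chromosome 17, in the RefSeq annotation of assembly GRCm38.p6. The first pair holds the member with the highest difference and the p38 gene next to it. The 250 bases before the annotated start of each are shown from RefSeq, 5′ to 3′ on the minus strand, at chr15:89140704-89140953 for Mapk12 and chr15:89149607-89149856 for Mapk11. Capitals mark matches to the motifs searched, which were chosen after the values and these windows had been seen.
Mapk12: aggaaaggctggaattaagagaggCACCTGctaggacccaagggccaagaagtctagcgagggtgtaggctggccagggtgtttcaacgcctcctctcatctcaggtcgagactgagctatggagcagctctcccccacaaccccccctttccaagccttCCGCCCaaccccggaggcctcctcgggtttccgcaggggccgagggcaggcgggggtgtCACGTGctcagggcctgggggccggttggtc
Mapk11: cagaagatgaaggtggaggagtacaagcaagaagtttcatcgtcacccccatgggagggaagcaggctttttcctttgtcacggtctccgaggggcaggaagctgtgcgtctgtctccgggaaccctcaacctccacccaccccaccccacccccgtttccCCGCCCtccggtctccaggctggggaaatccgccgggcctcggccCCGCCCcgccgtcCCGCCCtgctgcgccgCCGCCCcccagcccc

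The motifs were searched on both strands and did not overlap one another in these windows. The E-box CANNTG, the core site of E proteins and related factors, matched at 2 places before Mapk12, CACCTG and CACGTG, and nowhere before Mapk11. It occurs in 66.2% of all 32851 promoter windows of this length. The GC box GGGCGG, the site of Sp1, matched at 1 place before Mapk12 and at 4 before Mapk11, each time as CCGCCC on the strand shown, against 32.7% of all windows with at least 1 match. The palindromic NF-kB site GGAANTTCC, the AP-1 site TGANTCA and CCACG, the end of the ER stress element, matched in neither, and occur in 0.81%, 6.75% and 28.3% of all windows. Looser forms of the NF-kB site were not searched, so their absence from these windows is not shown. GC content was 64.4% before Mapk12 and 68.0% before Mapk11, against a median of 52.4%. A match describes letters and not a bound factor.

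Mapk12, which encodes p38 gamma, was higher in every Sca1-MALT1 array than in any WT array by its brighter probe set. This probe set, 1449283_a_at, read 8.06, 8.30 and 8.06 in WT replicates 1 to 3, and 9.74, 9.82, 10.05, 9.82 and 9.82 in Sca1-MALT1 replicates 1 to 5. The lowest Sca1-MALT1 array thus stood above the highest WT array, and within each genotype the arrays lay close together. The means were 8.14 ± 0.14 (SD, n = 3) in WT and 9.85 ± 0.12 (n = 5) in Sca1-MALT1, a log2 difference of 1.71 (SE 0.11), or 3.27-fold. In bulk cells, more cells that express a gene and more RNA per cell cannot be told apart.

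The size of this difference was joined to a small spread. The pooled SD of Mapk12 within genotypes was 0.12, and 12.5% of all genes had a smaller one, while 99.2% of genes had a smaller difference. The difference was 13.8 times the pooled SD, against a median ratio of 0.66 over all genes. The plot of difference against spread shows that Mapk12 stood apart from the other 6 members on this measure, which is the one it was chosen on.

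**Figure D1:**
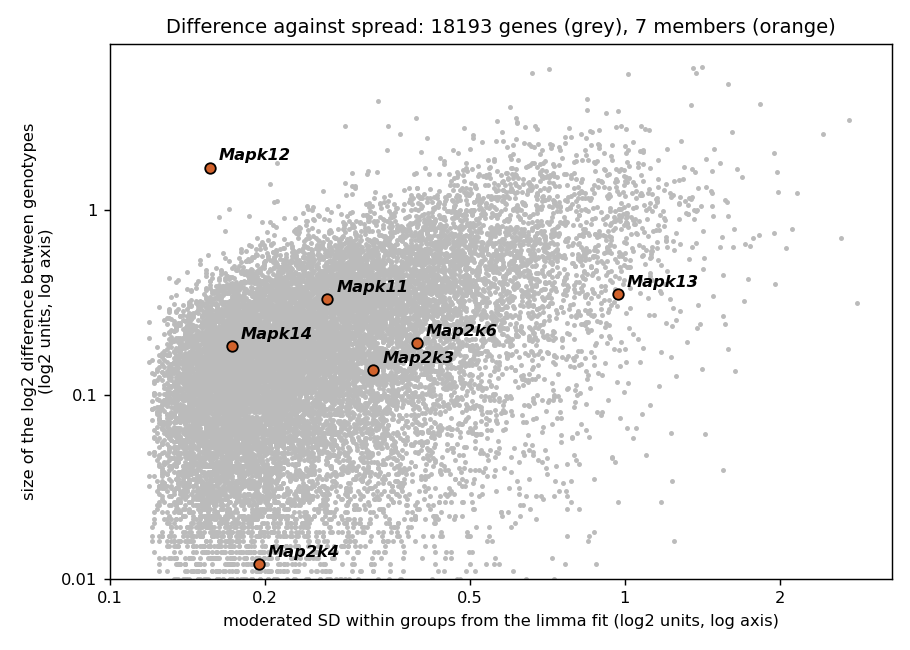
Size of the log2 difference between genotypes (vertical, log axis) against the moderated within-group SD of the limma fit (horizontal, log axis) for 18193 genes in grey and the 7 members in orange; 699 genes with a difference under 0.01 lie below the axis. Mapk12 lies at 1.71 with a small SD, Mapk13 has the widest spread of the members, and Map2k4 lies near the lower edge.

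The second probe set of Mapk12 gave a smaller difference in the same direction. 1447823_x_at read 5.92, 5.78 and 5.08 in WT and 6.42, 6.10, 6.35, 6.35 and 5.88 in Sca1-MALT1, and here the groups overlapped, since Sca1-MALT1 replicate 5 lay below WT replicate 1. The log2 difference was 0.63 (SE 0.21), so the estimate of the change depends on the probe set by more than 1 log2 unit. All 8 values of this probe set lay below the median of their array, and the suffix _x_at marks probes that can also bind unrelated transcripts. Across the 8 arrays the brighter and dimmer probe sets correlated at r = 0.754, a description that includes the difference between the genotypes. With the mean of both probe sets in place of the brighter one, the difference of Mapk12 was 1.17.

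The other p38 genes did not pass the test across all genes. Adjusted p-values are from limma with Benjamini-Hochberg adjustment over 18193 genes, with a threshold of 0.05. Of the 7 members, 1 passed, Mapk12, and 6 did not, beside 0.0879% of all genes. The groups did not overlap in 1 of the 7 members, again Mapk12, beside 7.13% of all genes. Since the choice of Mapk12 used this contrast, nothing is read from either count.

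Mapk14 encodes p38 alpha, the form through which most p38 signalling in blood cells runs. Its brightest probe set, 1416703_at, read 12.05, 11.94 and 12.21 in WT and 11.78, 11.77, 11.81, 11.92 and 12.15 in Sca1-MALT1. The first 4 Sca1-MALT1 arrays lay below all WT arrays and replicate 5 lay among them. By this probe set Mapk14 differed by -0.18 (SE 0.13, limma adjusted p = 0.675), with a 95% interval from -0.47 to 0.11. A change of the size read for Mapk12 by its brighter probe set lay outside this interval in both directions. The interval of 1442364_at, another Mapk14 probe set, ran from -2.03 to 0.90 and included such a change downward. With 1 array left out the difference of Mapk14 ran from -0.25, without Sca1-MALT1 replicate 5 or WT replicate 2, to -0.11, without WT replicate 3, and with the mean of its probe sets it was -0.076.

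The other 5 probe sets of Mapk14 did not share one direction. 1442364_at and 1459617_at differed by -0.56 (SE 0.64) and -0.28 (SE 0.22), and 1416704_at, 1451927_a_at and 1426104_at by 0.23 (SE 0.11), 0.20 (SE 0.16) and 0.15 (SE 0.14). None passed in the limma fit over all 45037 probe sets, with adjusted p-values of 0.560 to 0.816. In 1416704_at the groups did not overlap. It read 6.18, 6.17 and 6.21 in WT and 6.49, 6.26, 6.60, 6.44 and 6.30 in Sca1-MALT1, and 6 of the 8 values lay below the median of their array. 1442364_at varied most among them: it read 6.76 in Sca1-MALT1 replicate 5, against 8.21 to 9.89 on the other arrays of that genotype and 8.57 to 9.60 in WT. The probe sets of Mapk14 correlated with the brightest one at r from -0.567 to 0.132 over the 8 arrays, so they do not report one common pattern.

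Mapk11 encodes p38 beta. Its brighter probe set, 1421926_at, read 7.70, 8.26 and 7.48 in WT and 8.04, 7.97, 8.27, 8.42 and 8.02 in Sca1-MALT1. The groups overlapped because WT replicate 2 was high. Mapk11 differed by 0.33 (SE 0.19, limma adjusted p = 0.607; 95% interval -0.11 to 0.77), and the dimmer probe set, 1421925_at, differed by 0.19 (SE 0.13). Without WT replicate 2 the difference of Mapk11 was 0.56, and without WT replicate 3 it was 0.17. The interval of Mapk11 lay below the difference of its neighbour Mapk12 by the brighter Mapk12 probe set, 1.71. It included the difference by the dimmer one, 0.63, so this contrast depends on the probe set. Of the 6 other members, Mapk11 was nearest to Mapk12 in its pattern, with r = 0.620 over the 8 arrays and 0.680 over deviations from the group means. These values are descriptions of 8 arrays that share their normalization.

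**Figure D2:**
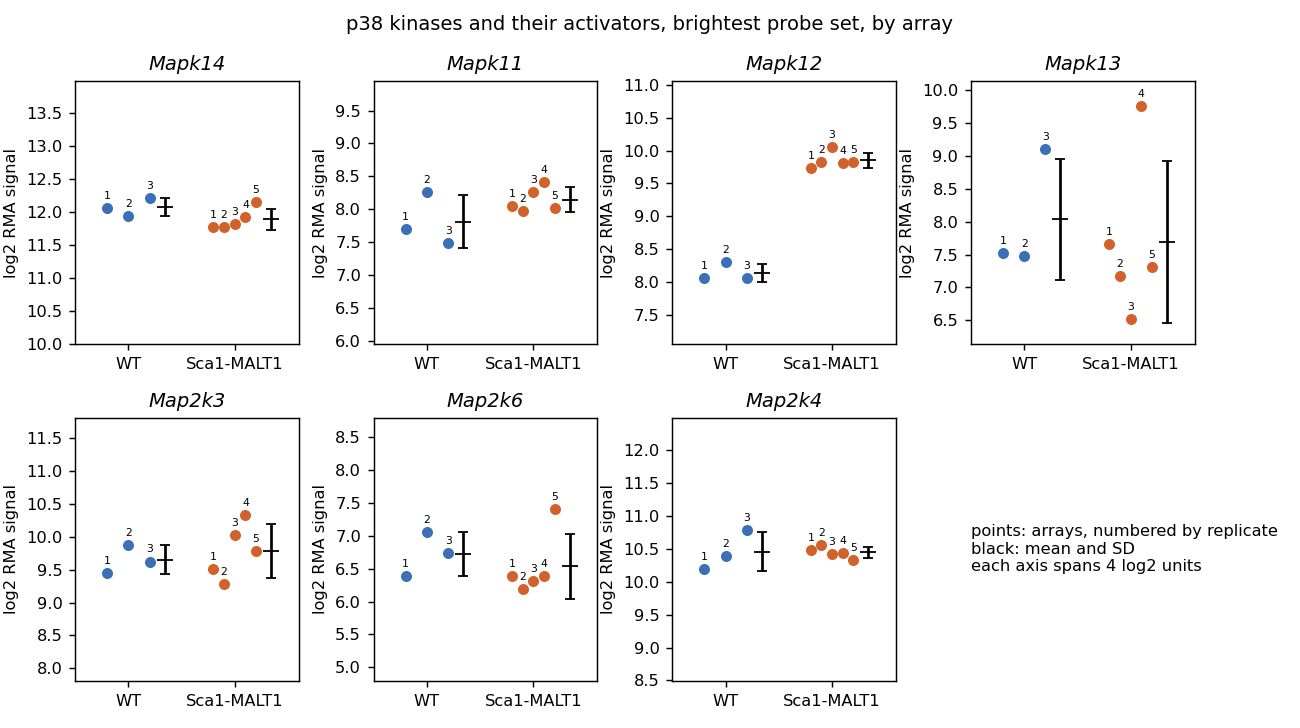
RMA log2 signal (vertical; each panel spans 4 log2 units) of the brightest probe set of the 7 genes in 3 WT arrays (blue) and 5 Sca1-MALT1 arrays (orange), numbered by replicate, with mean and SD in black. The groups separate for Mapk12, at 8.06 to 8.30 against 9.74 to 10.05, and overlap in the other 6 panels.

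Mapk13, which encodes p38 delta, varied between arrays of both genotypes. Its probe set, 1448871_at, read 7.52, 7.48 and 9.10 in WT and 7.66, 7.18, 6.52, 9.76 and 7.31 in Sca1-MALT1. WT replicate 3 and Sca1-MALT1 replicate 4 were high, and the other 6 arrays lay between 6.52 and 7.66. The pooled SD within genotypes was 1.14, and 98.4% of all genes had a smaller one. Mapk13 differed by -0.35 (SE 0.71, limma adjusted p = 0.906; 95% interval -1.97 to 1.27), so a change as large as that of Mapk12 downward lay within the interval. Without WT replicate 3 the difference of Mapk13 was 0.18, and without Sca1-MALT1 replicate 4 it was -0.87. It was -0.61 and -0.63 without WT replicates 1 and 2, and -0.058 and -0.22 without Sca1-MALT1 replicates 3 and 2.

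The arrays with high Mapk13 also had a high mean signal of the myeloid genes listed. The mean log2 signal of the neutrophil and monocyte list (S100a8, S100a9, Elane, Lyz2, Csf1r and Itgam, 6 of 6 measured) was 10.59, 11.32 and 11.98 in WT and 10.83, 10.01, 9.31, 12.75 and 9.77 in Sca1-MALT1. WT replicate 3 and Sca1-MALT1 replicate 4 thus had the highest mean in their genotype, and Sca1-MALT1 replicate 3, which had the lowest Mapk13, had the lowest mean. Elane did not follow this in WT, at 6.44 in replicate 3 against 9.73 in replicate 2. Of these 6 genes, 5 were lower and 1 higher on average in Sca1-MALT1, and none passed in limma's test. Their part in the spread of Mapk13 was not tested.

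The activators of p38 did not pass the test either. Map2k3, which encodes MKK3, a kinase dedicated to p38, read 9.45, 9.88 and 9.62 in WT and 9.51, 9.29, 10.02, 10.33 and 9.78 in Sca1-MALT1 (probe set 1451714_a_at). Sca1-MALT1 arrays lay on both sides of the WT arrays. Map2k3 differed by 0.14 (SE 0.24, limma adjusted p = 0.886; 95% interval -0.41 to 0.68). With 1 array left out the difference of Map2k3 ran from -0.0003, without Sca1-MALT1 replicate 4, to 0.26, without Sca1-MALT1 replicate 2. It was 0.034 and 0.25 without WT replicates 1 and 2, and 0.21 and 0.076 without Sca1-MALT1 replicates 1 and 3. The second probe set, 1425456_a_at, differed by 0.17 (SE 0.27) and followed the first across the arrays at r = 0.944, the closest match between probe sets of any member.

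Map2k6, which encodes MKK6, the other dedicated p38 activator, had 1 probe set, 1426850_a_at. It read 6.38, 7.06 and 6.74 in WT and 6.39, 6.19, 6.31, 6.39 and 7.40 in Sca1-MALT1. Replicate 5 of Sca1-MALT1 was above all other arrays and the remaining 4 lay near or below the lowest WT array. The log2 difference was -0.19 (SE 0.29, limma adjusted p = 0.865; 95% interval -0.85 to 0.47). Leaving out 1 array moved the difference of Map2k6 from -0.41, without Sca1-MALT1 replicate 5, to -0.024, without WT replicate 2. It was -0.36 without WT replicate 1 and -0.10 without Sca1-MALT1 replicate 2. Of these 8 signals, 5 lay below the median of their array.

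Map2k4 encodes MKK4, which activates JNK as well as p38. Its brighter probe set, 1451982_at, read 10.20, 10.39 and 10.79 in WT and 10.48, 10.56, 10.42, 10.44 and 10.33 in Sca1-MALT1, where all 5 arrays lay inside the WT range. Map2k4 differed by -0.01 (SE 0.14, limma adjusted p = 0.989; 95% interval -0.34 to 0.31) and turned to 0.01 when each array was centred on its median. With 1 array left out the difference of Map2k4 ran from -0.14, without WT replicate 1, to 0.15, without WT replicate 3. The dimmer probe set, 1426233_at, read 7.72, 7.58 and 6.996 in WT and 7.33, 7.04, 7.11, 7.14 and 6.16 in Sca1-MALT1, a log2 difference of -0.48 (SE 0.28, adjusted p = 0.648 in the limma fit over all probe sets). The probe sets of this gene correlated at r = -0.196.

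**Figure D3:**
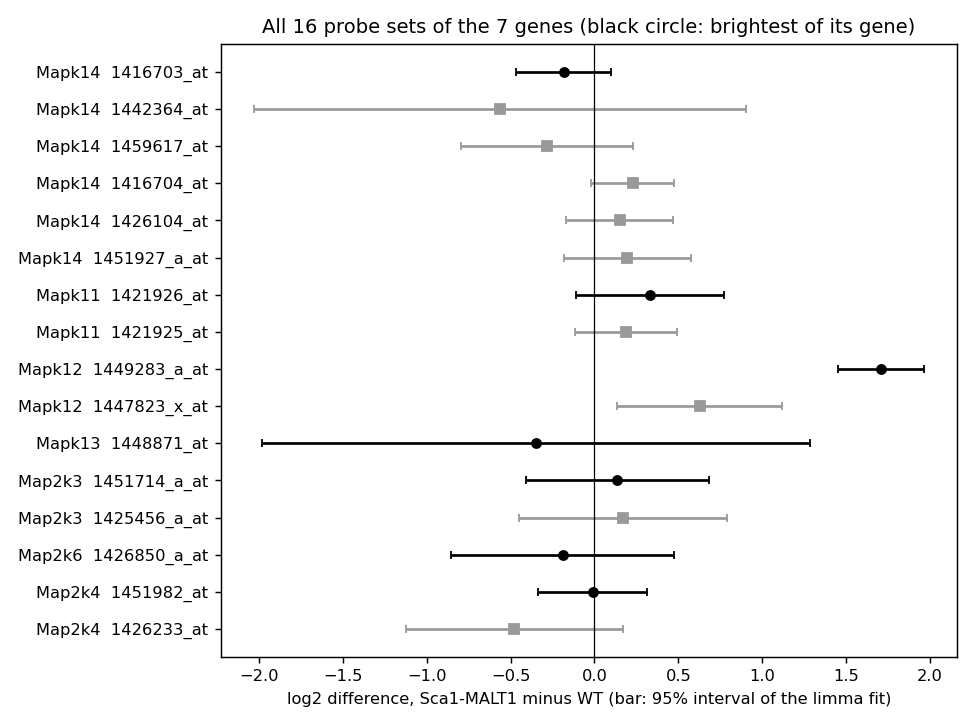
Log2 difference, Sca1-MALT1 minus WT (horizontal), with its 95% interval from the limma fit for the 16 member probe sets; black circles are the brightest probe set of each gene, grey squares the others. The probe sets of Mapk12 lie at 1.71 and 0.63, and the intervals of the other 14 probe sets include 0.

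Over all 16 probe sets, 9 had a positive and 7 a negative difference. In the limma fit over all probe sets 1 passed, 1449283_a_at of Mapk12, beside 0.06% of the 45037 probe sets. An unadjusted p under 0.05 was reached by 2, both of Mapk12, beside 9.47% of all probe sets, and 2 had groups that did not overlap, beside 6.83%. These counts rest on the contrast for which Mapk12 was chosen and are a description.

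Genes upstream and downstream of p38 and the other MAP kinase branches were taken from 7 lists of 63 genes, of which 57 were measured. None of the 57 passed over all genes in limma's test, where 0.0879% of all genes passed. An unadjusted p under 0.05 was reached by 3, which is 5.26% of them, beside 10.2% of all genes. The median log2 difference was 0.04, beside 0.00 over all genes, with 33 genes above 0 and 24 below. Groups that did not overlap were seen in 1 of the 57, Taok1, beside 7.13% of all genes.

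In the list of MAP3Ks and scaffolds that feed p38, 18 of 18 genes were measured, with a median of -0.01, and none passed. Taok1, a MAP3K of the p38 branch that acts in DNA damage and stress, read 9.33, 9.43 and 9.46 in WT and 8.80, 8.88, 8.91, 8.82 and 8.32 in Sca1-MALT1. Every Sca1-MALT1 array lay below every WT array. The difference was -0.67 (SE 0.15, limma adjusted p = 0.224), and 5 of its 7 probe sets shared this sign. Gadd45b, which binds the MAP3K MEKK4, differed by 0.54 (SE 0.30) and Tab3, a partner of TAK1, by 0.39 (SE 0.27), with limma adjusted p-values of 0.595 and 0.686. Map3k7, which encodes TAK1, differed by 0.01 (SE 0.22), and was named beyond the rule.

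The kinases below p38 had 6 of 7 genes measured and a median of -0.15, and none passed. Rps6ka5, which encodes MSK1, a kinase of histone H3 and CREB, read 9.28, 9.22 and 9.41 in WT and 8.57, 9.01, 8.32, 8.43 and 9.34 in Sca1-MALT1. Replicate 5 of Sca1-MALT1 lay among the WT arrays and the other 4 below them. The difference was -0.57 (SE 0.23, limma adjusted p = 0.458), a sign that its 3 probe sets shared. The MNK kinase genes Mknk2 and Mknk1, which act on the cap-binding factor eIF4E, differed by -0.33 (SE 0.21) and -0.20 (SE 0.18), each with 1 probe set of the opposite sign. Mapkapk2, which encodes MK2, stood at 0.33 (SE 0.31, named beyond the rule).

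Transcription factor and RNA-binding substrates had 9 of 9 genes measured and a median of 0.11, and none passed. Zfp36, which encodes tristetraprolin, a destabiliser of cytokine transcripts, differed by 0.81 (SE 0.45, limma adjusted p = 0.585), Mef2a by 0.28 (SE 0.16) and Creb1 by -0.21 (SE 0.15), the last with the same sign in 2 of 6 probe sets.

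Among phosphatases that switch p38 off, 8 of 9 genes were measured, with a median of 0.15, and none passed. Dusp1, the inducible phosphatase of p38 and JNK, read 10.74, 10.03 and 11.20 in WT and 11.95, 10.90, 11.93, 11.01 and 11.89 in Sca1-MALT1. Replicates 1, 3 and 5 of Sca1-MALT1 were above all WT arrays and replicates 2 and 4 lay within the WT range. The difference was 0.88 (SE 0.35, limma adjusted p = 0.449). Dusp8 differed by 0.41 (SE 0.19) and Ppm1a by 0.35 (SE 0.17), the last with the same sign in 2 of 8 probe sets.

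Of the binding partners of p38 gamma, 2 of 3 were measured and none passed. Dlg1, a PDZ scaffold, differed by -0.10 (SE 0.18), and Ptpn3, a phosphatase that binds the tail of p38 gamma, by 0.09 (SE 0.53). In the JNK branch (6 of 7 genes measured, median 0.06) Mapk8ip3 stood at 0.36 (SE 0.17), Mapk10 at -0.24 (SE 0.11) and Mapk9 at 0.32 (SE 0.23). In the ERK and atypical branch (8 of 10 measured, median 0.08) Mapk6 stood at 0.25 (SE 0.13), Mapk15 at -0.24 (SE 0.16) and Map2k1 at 0.18 (SE 0.16). None of these genes passed in limma's test, with adjusted p-values of 0.509 to 0.973. Probe sets disagreed in sign for Mapk8ip3, Mapk10 and Mapk6.

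**Figure D4:**
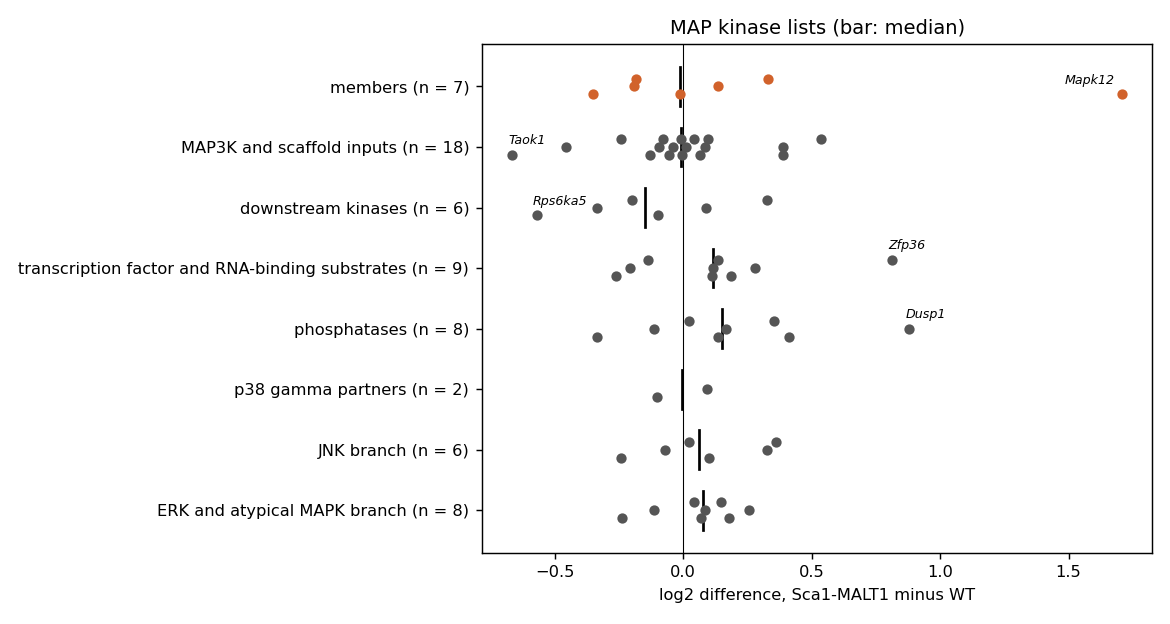
Log2 difference, Sca1-MALT1 minus WT (horizontal), of the genes of the p38 member set (orange) and of 7 further MAP kinase lists (grey), with the median of each list as a bar. Mapk12 lies at 1.71, and the genes of the 7 further lists lie between -0.67 and 0.88.

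The genes whose signal was most like that of Mapk12 over the 8 arrays were Igkv8-30 (Pearson's r = 0.982), Jchain (0.968), Sec24a (0.958), Mt2 (0.955) and Tmem176a (0.955), among the genes with a mean above the median of all genes. Igkv8-30 encodes an antibody light chain segment, Jchain joins secreted antibody chains, Sec24a is a cargo adaptor of COPII vesicles, and Mt2 is a metallothionein. All of them were higher in every Sca1-MALT1 array than in every WT array, so this likeness is mostly the difference between the genotypes. When each array's deviation from its group mean was compared instead, other genes came first: Nfs1 (r = 0.915), Klf3 (0.903), Tspan9 (0.898), Rusc1 (0.898) and Pheta2 (0.892). Their log2 differences between genotypes lay from -0.14 to 0.27. With 8 arrays and so many genes searched, these are descriptions only.

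Markers of plasma cells moved with Mapk12 between the genotypes. They were not alone, since the means of the erythroid and skeletal muscle lists, given below, were also higher in every Sca1-MALT1 array. The muscle list did not rise as a set. Of its 11 genes, 7 were higher and 4 lower on average, and Cacna1s and Ryr1 differed most, by 2.79 and 2.13. Of the plasma cell list (Jchain, Sdc1, Prdm1, Xbp1, Tnfrsf17, Irf4 and Mzb1, 7 of 7 measured), all 7 were higher on average in Sca1-MALT1 and 1, Jchain, passed in limma's test. Jchain lost that call without WT replicate 3 or Sca1-MALT1 replicates 1, 3 or 5, with adjusted p up to 0.0718. The mean of the list was 9.14, 9.64 and 9.55 in WT and 12.62, 10.72, 11.37, 11.64 and 11.90 in Sca1-MALT1. Among the Sca1-MALT1 arrays the order was not that of Mapk12: replicate 1 had the highest list mean and the lowest Mapk12, and replicate 3 had the highest Mapk12. The early B cell list (Vpreb1, Igll1, Rag1, Rag2, Dntt and Ebf1) moved the other way, with 6 of 6 lower on average. Vpreb1, Igll1, Rag1 and Rag2 passed in limma's test, and Rag2 lost its call with any array but WT replicate 2 left out, with adjusted p up to 0.131. The mean of this list ran from 9.68 to 10.88 in WT and from 5.99 to 7.32 in Sca1-MALT1. The part of these cell types in the difference of Mapk12 was not tested.

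**Figure D5:**
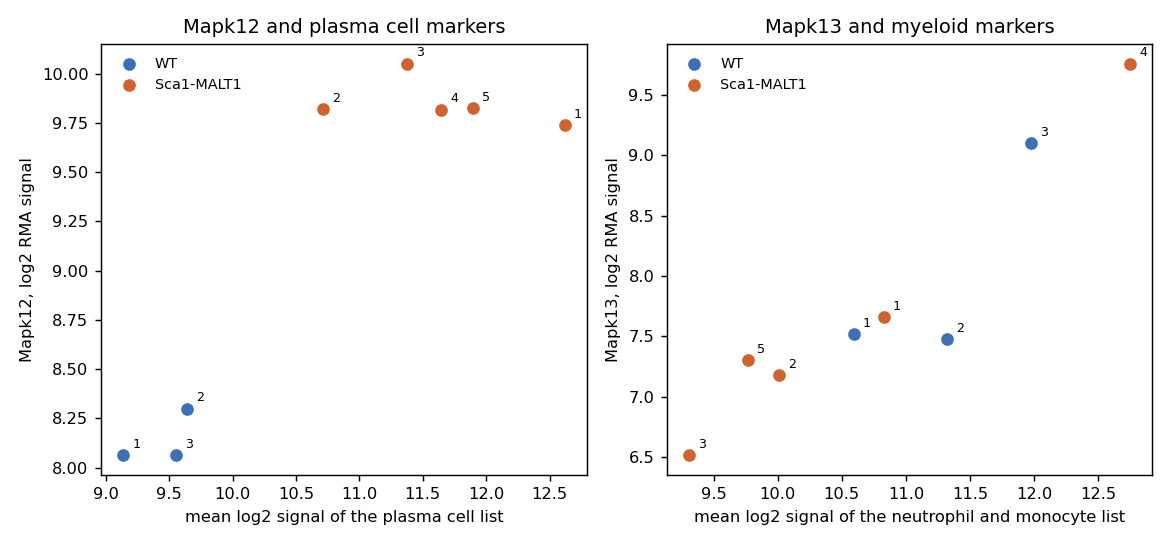
Left, log2 signal of Mapk12 (vertical) against the mean log2 signal of 7 plasma cell markers (horizontal); right, Mapk13 against the mean of 6 neutrophil and monocyte markers; points are arrays, WT in blue and Sca1-MALT1 in orange, numbered by replicate. Mapk12 separates the genotypes, while high Mapk13 is seen in WT replicate 3 and Sca1-MALT1 replicate 4, which have the highest myeloid means of their genotype.

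Since p38 gamma is best known from skeletal muscle, muscle markers were read as well. Of 11 genes, all measured, 6 lay below the array median on every array, and the mean of the list was 5.76 to 5.84 in WT and 5.91 to 6.47 in Sca1-MALT1. The contractile genes Ckm, Acta1 and Tnni2 differed by -0.23, -0.41 and -0.43. Mylpf, Myh1, Myh4, Tnnt3 and Actn3 differed by 0.17, 0.09, 0.26, 0.49 and 0.14, and Myog by -0.19. None of these genes was past the threshold in limma's test. Groups did not overlap in Tnni2, lower in Sca1-MALT1, or in Myh4, Tnnt3, Cacna1s and Ryr1, all higher. Over all genes, 7.13% had groups that did not overlap. The largest increases in this list were in the calcium channel genes Cacna1s and Ryr1, while every other gene differed by -0.43 to 0.49. The higher mean of the list in Sca1-MALT1 therefore does not describe its genes as a set. Cacna1s, the voltage sensor of muscle excitation, read 5.57, 5.25 and 5.68 in WT and 8.68, 7.40, 7.86, 9.08 and 8.42 in Sca1-MALT1, a difference of 2.79 (SE 0.36, limma adjusted p = 0.0477). Cacna1s did not pass without any 1 WT array or without Sca1-MALT1 replicates 1, 3 or 5, with adjusted p up to 0.179. Ryr1, the calcium release channel to which it couples, differed by 2.13 (SE 0.55, limma adjusted p = 0.271).

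Other cell types differed between arrays as well. The means of the T cell list (5 of 6 measured) ran from 9.58 to 9.92 in WT and from 9.39 to 11.21 in Sca1-MALT1, those of the erythroid list (4 of 6 measured) from 8.75 to 9.26 and from 9.92 to 10.55, those of the B cell list (5 of 6) from 10.01 to 10.45 and from 8.45 to 10.19, and those of the stem and progenitor list (6 of 7) from 9.24 to 10.996 and from 7.97 to 10.37. No gene of these 4 lists passed in limma's test. The erythroid means did not overlap between the genotypes, and all 4 measured erythroid genes were higher on average in Sca1-MALT1. Car1 differed most, by 2.45, against 0.94, 0.78 and 0.63 for Gata1, Klf1 and Epor. The groups overlapped in Klf1 and Epor but not in Gata1 and Car1, beside 7.13% of all genes without overlap. Within Sca1-MALT1 the erythroid mean was lowest in replicate 1 (9.92) and highest in replicate 3 (10.55), as Mapk12 was. Gata1, Klf1 and Epor were each lowest in replicate 2, where Car1 was highest (12.18), so the lowest mean in replicate 1 rests on Car1. In WT the erythroid mean was highest in replicate 1, and Mapk12 in replicate 2. The part of these cell types in the values of the p38 genes was not tested.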

How the data were processed

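The authors made the deposited log2 values, 1 for each of the probe sets on each array, with RMA, which the submitters' processing notes name without a version (not given in the sources used here). No further normalization was applied. Of 45101 probe sets, 64 controls were left out; 34945 had 1 gene symbol in the platform annotation, 932 had several and 9160 were not listed. Symbols were updated through gene identifiers for 34741 probe sets with a RefSeq table of GRCm38.p6, and each gene was read from its probe set with the highest mean, which gave 18193 genes. WT and Sca1-MALT1 were compared with limma 3.58.1 (lmFit, eBayes, genotype as the only term) in R 4.3.3, two-sided, with Benjamini-Hochberg adjustment at 0.05, and the same fit was made over 45037 probe sets. The fit was also run on simulated data with independent noise for each gene. That setting lacks shifts shared by many genes of an array, so it does not give the error rate in these data. The number of arrays limits the precision. Named were all members, the 3 genes of each pathway list with the lowest p, the 5 genes most like Mapk12 by each measure, and marker genes; others are said to be beyond the rule. All 7 members have a promoter entry in the RefSeq table. Members and lists were chosen with earlier results of these data known, and the promoter motifs after the values were seen. Alternatives were scaling, filters on dim genes, the choice of probe set, the variance model, array weights, thresholds, a replicate block, and each array left out in turn.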

Additional observations from a re-analysis of the deposited data

Results flagged for a closer look

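In 8 of 54 sets of 5 Sca1-MALT1 values screened (16 member probe sets, 30 other named genes and 8 marker list means), 1 array stood far from the other 4; chance gives this in about 1 in 20 groups, and the 3 WT arrays were too few to screen. The brighter Mapk12 probe set, 1449283_a_at, was highest in Sca1-MALT1 replicate 3, 10.05 against 9.82 in the next array. Replicate 5 was apart in Map2k6, at 7.40 against 6.39 in the next, in the dimmer Map2k4 probe set 1426233_at, at 6.16 against 7.04, and in Taok1, at 8.32 against 8.80. Replicate 4 was apart in the dim Mapk14 probe set 1451927_a_at, at 5.05 against 4.57, in Mapk9, at 9.22 against 10.003, and in the mean of the T cell list, at 9.39 against 10.84. Replicate 2 was apart in the mean of the early B cell list, at 7.32 against 6.35.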

How the results depend on the processing

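Mapk12 kept its direction in 17 of 17 alternatives, with differences of 1.17 to 1.79, and passed in 16 of them, the exception being the replicate block, where the difference was 1.73 and the limma adjusted p 0.175. Mapk12 was chosen on this contrast, and the alternatives reuse the same arrays, some with its difference unchanged by construction. These counts are therefore a description and not separate tests. The labels do not say whether same-numbered arrays belong together. Deviations of same-numbered arrays correlated at -0.217, -0.038 and 0.006, and those of other-numbered arrays at -0.2375 to 0.215. With so few arrays these values cannot show whether the samples were paired. With the block, 0 members, 0 of all genes and 1 probe set passed, and the block leaves few residual degrees of freedom. Replicate numbers 4 and 5 exist only in Sca1-MALT1, so those arrays add nothing to the blocked difference. Among the 18193 genes 16 passed; 27 did with only genes above the array median on 3 arrays, 28 with array quality weights, 8 at an adjusted p under 0.01, and 8 to 38 with 1 array left out (8 without Sca1-MALT1 replicate 3, 38 without replicate 2). Among probe sets 27 passed, and 8 to 56 with 1 array left out. None of the 57 pathway genes passed under any alternative. The sign turned for Mapk13 (-0.87 to 0.18 with 1 array left out, the highest without WT replicate 3), Map2k3 (-0.043 with the replicate block, -0.0003 to 0.26 with 1 array left out, the lowest without Sca1-MALT1 replicate 4) and Map2k4 (0.0076 with array medians centred, 0.0064 with quality weights, 0.027 with the block, and -0.14 to 0.15 with 1 array left out, above 0 without WT replicate 3 or Sca1-MALT1 replicate 5), none past the threshold; the cause was not tested. Map2k6 fell under 1 filter on dim genes and has no value there. Signal over background could not be judged for probe sets near or below the array medians.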
